A study of Mus musculus with 6 samples.

Results

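The testis-specific serine kinases are a small family of protein kinases made almost only in male germ cells after meiosis, and Tsks encodes a substrate that their first 2 members phosphorylate. Their 6 genes, Tssk1, Tssk2, Tssk3, Tssk4, Tssk6 and Tsks, were followed among the 18193 genes with a probe set of their own on the array. A probe set is a group of short probes for 1 transcript, and every one was taken that the array's annotation assigns to 1 of them alone, under a current or older symbol, with no filter on low values. These are 9 of the 45037 probe sets tested, and no probe set was shared between a member and another gene. Tssk1, Tssk2, Tssk6 and Tsks have 1 probe set each, Tssk3 has 2 and Tssk4 has 3. RNA came from freshly dissected testes of adult mice on a hybrid of C57BL/6 and CBA. The groups were 3 samples from mice with a DREAM transgene, a mutant labelled constitutively active, and 3 from wild-type mice, each on its own array and described as an independent biological replicate. The promoter that drives the transgene is not given in the sources used here. All values are log2 intensities, in which a difference of 1 is a doubling of the signal, and levels of different probe sets cannot be set against each other.

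Spermatids stop dividing and rebuild themselves into sperm: chromatin is packed onto protamines, an acrosome and a tail are made, and most cytoplasm is shed. The kinases act in this phase, and mice that lack Tssk1 and Tssk2 together, Tssk3, Tssk4 or Tssk6 have defective sperm and impaired male fertility. DREAM, encoded by Kcnip3, is a calcium-binding repressor that binds a DNA element with the core GTCA when free of calcium, and it can also bind the related activators CREB and CREM, the second of which drives many spermatid genes. Whether spermatid kinase transcripts differ in testes with the active DREAM mutant is the question the comparison addresses.

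Before the members, the arrays themselves were compared. Their median log2 intensity ran from 6.05 to 6.08 in transgenic and from 5.99 to 6.08 in wild-type testis. Wild type replicate 2 stood apart on the first principal component (42.2, against -23.3 to 5.3 for the other arrays; 38.9% of the variance), so the differences without it are given below. RNA integrity was read from the control probe sets at the 3' and 5' ends of Gapdh, whose log2 difference (3' minus 5') was 0.27 ± 0.06 in transgenic and 0.11 ± 0.05 in wild-type testis (SD, n = 3 each, exact permutation test, two-sided, p = 0.1, the smallest that 3 against 3 can give). The same difference for beta-actin was 0.50 ± 0.03 in transgenic and 0.47 ± 0.05 in wild-type testis (SD, n = 3 each, exact permutation p = 0.7). Kcnip3 did not pass with either probe set (0.06 and 0.14, limma adjusted p = 0.974 and 0.909), and the sources used here do not say whether they would detect the transgene.

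None of the 9 member probe sets passed the test for a difference between the genotypes. Of all 45037 probe sets, 0.444% passed limma's moderated test at an adjusted p under 0.05, and 6.69% had an unadjusted p under 0.05, a level that 0 of the 9 reached. The smallest adjusted p of a member was 0.904. The member differences, transgenic minus wild type, ran from -0.12 to 0.15 with a median of -0.02, against a median of 0.02 over all probe sets. Of the 9, 6 were below 0, where 42.5% of all probe sets were. The median size of a difference was 0.08 for the members and 0.08 for all probe sets.

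In the main fit these differences in signal had narrow intervals. All 9 of the 95% intervals lay between -0.40 and 0.48, and the smallest difference among the 200 probe sets that passed was 0.483. With no detection call, the intervals of the dimmer Tssk3 and Tssk4 probe sets limit the signal and not necessarily the transcript. For the brightest probe set of each gene, the intervals reached at the lowest a transgenic signal 0.801 times that of wild type (Tssk3) and at the highest 1.21 times (Tssk1). These limits depend on the fit. With the Gapdh difference as a covariate, which that fit separates poorly from genotype, Tssk3 (0.15), Tssk6 (0.22) and Tsks (0.235) lay above their intervals. Tssk1 (0.03), Tssk2 (0.13) and Tssk4 (-0.14) stayed inside theirs. The median SD of the replicates about their group means was 0.106 for the members and 0.134 for all probe sets. In simulated arrays of the same design the test recovered 77.6% of 2-fold changes and 25.4% of changes of 0.5 on the log2 scale.

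**Figure D1:**
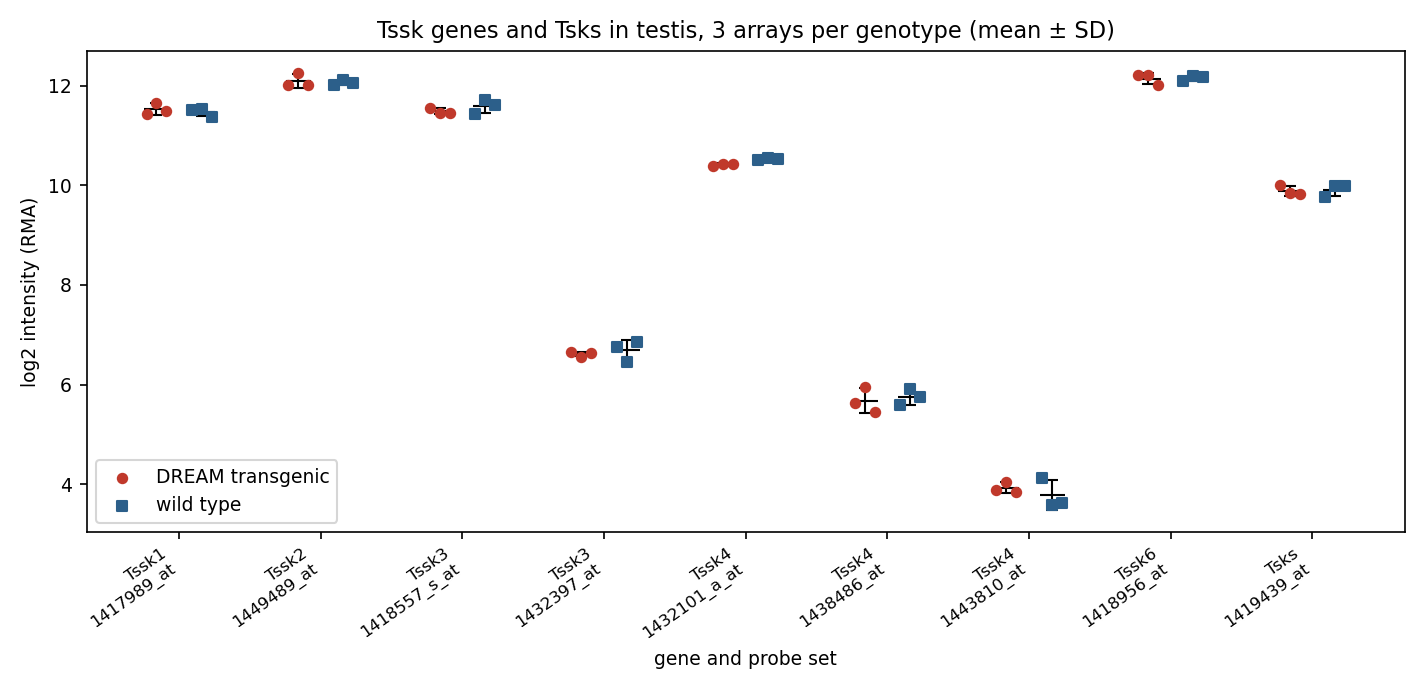
Log2 intensity (vertical axis) of the 9 probe sets of the Tssk genes and Tsks (horizontal axis) on each of the 3 DREAM transgenic arrays (circles) and 3 wild-type arrays (squares), with mean and SD. The genotypes overlap in 8 probe sets and are separate in the brightest of Tssk4, by 0.12 in the mean.

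**Figure D2:**
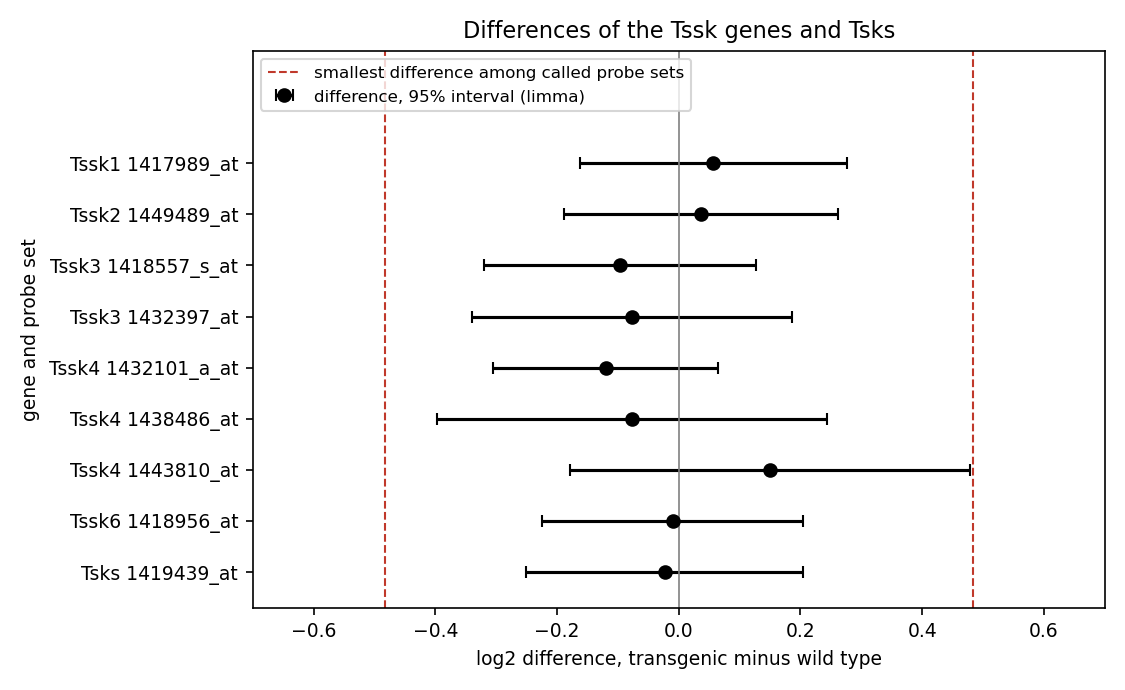
Log2 difference, transgenic minus wild type (horizontal axis), of each member probe set with its 95% interval from limma. Dashed lines mark the smallest difference, 0.483 in either direction, among the 200 probe sets that passed, and all 9 intervals lie inside them. The lines are not a size below which a change is absent.

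Tssk1 and Tssk2 encode the founding pair of kinases, which gather in the cytoplasm of late spermatids. Tssk1 read 11.44, 11.66 and 11.50 in transgenic testes, against 11.52, 11.53 and 11.38 in wild-type testes. The ranges overlapped, and the highest of the 6 arrays was transgenic replicate 2. The means were 11.53 ± 0.11 in transgenic and 11.48 ± 0.08 in wild type (SD, n = 3 each), a difference of 0.06 (SE 0.10, 95% interval -0.16 to 0.28, limma adjusted p = 0.978).

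Tssk2 read 12.02, 12.26 and 12.01 in transgenic testes, against 12.01, 12.11 and 12.06 in wild-type testes. As with Tssk1, only transgenic replicate 2 lay above all wild-type arrays. Its means of 12.10 ± 0.14 in transgenic and 12.06 ± 0.05 in wild type (SD, n = 3 each) differed by 0.04 (SE 0.10, 95% interval -0.19 to 0.26, limma adjusted p = 0.986). Without that array the differences were -0.007 for Tssk1 and -0.045 for Tssk2, so the sign of both rested on it. The array-by-array difference of Tssk1 minus Tssk2 stayed within -0.60 to -0.51 in transgenic and -0.68 to -0.49 in wild-type testes. The genotypes overlapped in that measure too.

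The pair are neighbours on chromosome 16, with no annotated gene between them in the RefSeq annotation. The DNA just before their starts is shown because the mutant in these mice is of a repressor with a known DNA element. The sequences are the 250 bases before the RefSeq start of each gene in assembly GRCm38.p6, both on the plus strand, at chr16:17893953-17894202 for Tssk1 and chr16:17898387-17898636 for Tssk2. Capitals mark the DREAM element core GTCA, or TGAC where it reads on the opposite strand.
Tssk1: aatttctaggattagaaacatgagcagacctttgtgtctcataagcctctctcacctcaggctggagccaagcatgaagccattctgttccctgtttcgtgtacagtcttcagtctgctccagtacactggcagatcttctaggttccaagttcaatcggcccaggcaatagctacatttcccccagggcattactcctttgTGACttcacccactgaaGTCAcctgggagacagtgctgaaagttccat
Tssk2: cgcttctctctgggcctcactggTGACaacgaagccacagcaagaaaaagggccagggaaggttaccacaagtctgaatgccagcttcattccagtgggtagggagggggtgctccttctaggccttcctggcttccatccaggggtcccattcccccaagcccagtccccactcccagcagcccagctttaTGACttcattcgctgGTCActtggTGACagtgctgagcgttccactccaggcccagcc
A local alignment matched positions -53 to -2 of Tssk1 with -63 to -15 of Tssk2, counted back from the base before the start. Of 49 aligned bases 41 were identical (83.7%), with 3 gap bases. Such an alignment picks its own best stretch. Those of the other member pairs were shorter, with 81.5% to 100% identical, so the percent does not set this pair apart. The GTCA core, on either strand, lies at -48 and -31 in Tssk1 and at -227, -58, -43 and -34 in Tssk2. It occurs in 80.2% of the 32851 windows of this length before annotated mouse starts, with a median of 2 per window, so its presence sets neither gene apart. The full CREB and CREM element TGACGTCA, which reads the same on both strands, was in neither window and is in 1.55% of all windows.

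Tssk3 encodes a kinase of elongating spermatids. With its brighter probe set it read 11.56, 11.46 and 11.46 in transgenic testes, against 11.44, 11.71 and 11.62 in wild-type testes. The lowest array of all was a wild-type one, so the groups overlapped although the other 2 wild-type arrays were above every transgenic one. The difference was -0.10 (11.49 ± 0.06 in transgenic and 11.59 ± 0.14 in wild type, SD, n = 3 each, SE 0.10, 95% interval -0.32 to 0.13, limma adjusted p = 0.956). The name of this probe set ends in _s_at, Affymetrix's mark for probes shared by several transcripts. The dimmer probe set read 6.65, 6.56 and 6.63 in transgenic and 6.76, 6.45 and 6.86 in wild-type testes, a difference of -0.08 (SE 0.12, adjusted p = 0.973). Both probe sets of Tssk3 were below 0 by less than their SE (-0.097, SE 0.099, and -0.077, SE 0.116). The SDs were 0.14 and 0.21 over the wild-type arrays and 0.06 and 0.05 over the transgenic arrays. Without wild type replicate 2 the probe sets read -0.04 and -0.20 (limma adjusted p = 0.933 and 0.456).

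Tssk4 encodes a kinase that phosphorylates Odf2, a protein of the outer dense fibres of the sperm tail. Its brightest probe set read 10.38, 10.43 and 10.43 in transgenic testes, against 10.52, 10.55 and 10.53 in wild-type testes. This was the only member probe set whose genotypes did not overlap, 1 of 9, where 11.3% of all probe sets had separate groups. Every transgenic array was lower, by 0.12 in the mean (10.41 ± 0.03 in transgenic and 10.53 ± 0.02 in wild type, SD, n = 3 each, a transgenic signal 0.92 times that of wild type). It did not pass (SE 0.08, 95% interval -0.31 to 0.07, limma unadjusted p = 0.178, adjusted p = 0.904). Its replicates had an SD of 0.023 about their means, and limma widens so small an SD toward that of the other probe sets. By an exact permutation test, two-sided, the separation had p = 0.1, the smallest that 3 against 3 can give.

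The other probe sets of Tssk4 did not separate the genotypes. One read 5.62, 5.95 and 5.45 in transgenic and 5.58, 5.92 and 5.75 in wild-type testes (difference -0.08, SE 0.14, adjusted p = 0.979). The dimmest read 3.89, 4.05 and 3.84 in transgenic and 4.12, 3.59 and 3.62 in wild-type testes, a difference of the opposite sign (0.15, SE 0.15, adjusted p = 0.949). The files give no detection call, so neither is shown to lie above background. The mean over the gene's 3 probe sets differed by -0.02 (limma adjusted p = 0.993).

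Tssk6, also called SSTK, is needed for the exchange of histones in spermatid chromatin. It read 12.22, 12.21 and 12.01 in transgenic testes, against 12.10, 12.20 and 12.17 in wild-type testes. The highest and the lowest array were both transgenic, with the wild-type values between them. The means were 12.15 ± 0.12 in transgenic and 12.16 ± 0.05 in wild type (SD, n = 3 each), a difference of -0.01 (SE 0.10, 95% interval -0.22 to 0.20, limma adjusted p = 0.994).

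The window before the start of Tssk6 is shown because it held more GTCA cores than that of any other member, 6, and the only TGACG, the core of the CREB and CREM element. It lies at chr8:69901934-69902183 of GRCm38.p6 on the plus strand, and capitals mark GTCA or TGAC.
Tssk6: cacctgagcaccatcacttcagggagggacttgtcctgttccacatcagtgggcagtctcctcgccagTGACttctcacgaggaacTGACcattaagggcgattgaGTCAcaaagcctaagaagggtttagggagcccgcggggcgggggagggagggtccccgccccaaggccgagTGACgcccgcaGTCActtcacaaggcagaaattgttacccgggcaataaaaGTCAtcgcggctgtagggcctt
The TGACG begins at -73 and overlaps a TGAC already in capitals. That core, on either strand, is in 17.8% of all windows. Over all windows GTCA had a mean of 1.74 and a median of 2 per window. How many windows hold 6 or more was not counted, so the number at Tssk6 is not shown to be unusual. The windows of Tssk3, Tsks and Tssk4 held 3, 2 and 0 GTCA cores. For Tssk3, Tssk4 and Tsks the window lies inside the annotated span of the gene, before 1 of its starts, and other starts were not searched.

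Tsks encodes the spermatid protein that Tssk1 and Tssk2 bind and phosphorylate, found at the centrioles and in cytoplasmic granules. It read 10.00, 9.84 and 9.83 in transgenic testes, against 9.77, 9.98 and 9.99 in wild-type testes. The highest array was transgenic and the lowest wild type, while the means ran the other way, 9.89 ± 0.10 in transgenic and 9.91 ± 0.12 in wild type (SD, n = 3 each). The difference was -0.02 (SE 0.10, 95% interval -0.25 to 0.20, limma adjusted p = 0.99).

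Among themselves the members did not share 1 pattern over the arrays. Tssk1 and Tssk2 were highest in transgenic replicate 2, where Tssk3, Tssk4 and Tsks were below their own means. In transgenic replicate 3 all 6 genes read below their mean over the 6 arrays, with deviations of -0.14 to -0.005. In wild type replicate 2, the array that stood apart, all 6 read above their mean, by 0.025 to 0.17. The share of all probe sets that deviated the same way on these arrays was not counted, so neither is shown to be particular to the members. Between the highest and lowest array the 6 brightest probe sets spanned 0.17 (Tssk4) to 0.28 (Tssk1), or 1.13-fold to 1.21-fold. Without wild type replicate 2 the differences of the 6 brightest probe sets ran from -0.11 (Tssk4) to 0.08 (Tssk1), with 0 of them past the threshold in limma, adjusted or unadjusted.

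**Figure D3:**
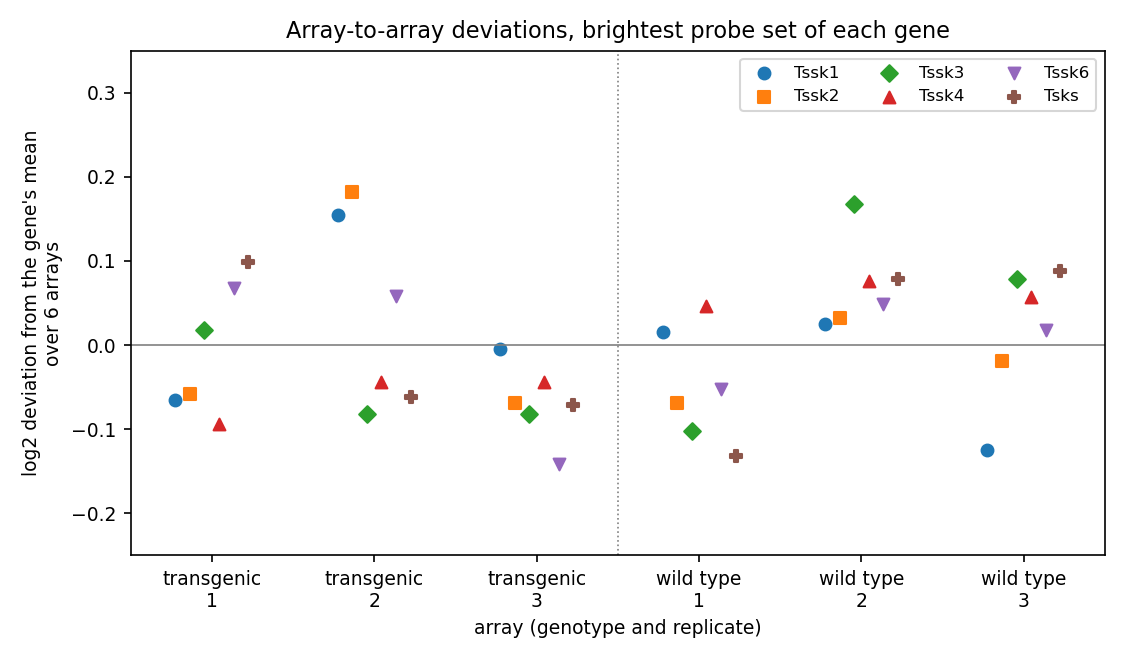
Deviation of the brightest probe set of each of the 6 genes from its own mean over the 6 arrays (vertical axis, log2), for the 3 transgenic arrays and the 3 wild-type arrays (horizontal axis). Points of all genes lie within 0.2 of 0, all 6 below it in transgenic replicate 3 and all 6 above it in wild type replicate 2. The share of all probe sets that did so was not counted.

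The genes whose values over the 6 arrays were most like those of each kinase were sought among single-gene probe sets that varied at least as much. Likeness was the root mean square difference of the log2 values, each centred on its own mean. Nearest to Tssk1 were Acot12 and Itpr2 (0.016 and 0.017), and nearest to Tssk2 were Hes1 and Zdhhc6 (both 0.021). For Tssk3 they were Clec14a and Anapc5 (0.016 and 0.019), and for Tssk4 Cbl and Mbd4 (0.012 and 0.016). Wwp2 and Mrtfa lay nearest to Tssk6 (0.020 and 0.021), and Iqcg and Sp1 nearest to Tsks (0.017 and 0.019). Between 22567 and 29504 probe sets competed for each place over only 6 arrays. No member was among the nearest of another, but the rule left out any member probe set that varied less. For Tssk3, whose brightest probe set varied most (SD 0.108 over the 6 arrays), no other member's brightest probe set could compete. This outcome therefore does not show how alike the members are.

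The kinases' partners and substrates were listed beside them, in 1 list with Tssk5, which is itself a kinase of the family. Of the 6 measured, Tssk5 included, 0 passed the threshold, 0 had an unadjusted limma p under 0.05, and the median difference was 0.03. H2ax, the histone whose phosphorylation depends on Tssk6 in spermatids, read 10.32 ± 0.08 in transgenic and 10.15 ± 0.11 in wild-type testis (SD, n = 3 each, difference 0.17, SE 0.10, adjusted p = 0.84). Tssk5, the remaining member of the kinase family, read 7.57, 6.70 and 6.69 in transgenic testes, against 7.88, 7.46 and 6.96 in wild-type testes. Its arrays overlapped and its replicates spread far more than those of the other kinases, with SDs of 0.51 in transgenic and 0.46 in wild type. The difference was -0.45 with a 95% interval of -1.06 to 0.17 (adjusted p = 0.867), so a 2-fold lower signal lies inside the interval. The other four were named after their values were seen: Odf2, the substrate of Tssk4, at 0.11, Tsacc, the co-chaperone that activates Tssk6, at -0.05, Hsp90aa1, the chaperone it works with, at 0.03, and Ppp1cc, the phosphatase that binds Tsks, at 0.03 (adjusted p from 0.93 to 0.987).

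Other protein kinases of male germ cells were measured for 16 of 18 listed genes, with 0 passing, 0 at an unadjusted limma p under 0.05, 11 above 0 and a median of 0.03. Tesk2, a kinase that acts on cofilin, read -0.19 (SE 0.09, adjusted p = 0.752), and Mak, a kinase of germ cells and cilia, read -0.17 (SE 0.09, adjusted p = 0.8). In both the 3 transgenic arrays lay below the 3 wild-type arrays, and 11.3% of all probe sets had groups that did not overlap, in either direction.

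In a whole testis fewer cells of a type and less RNA per cell cannot be told apart, so the kinases were set beside markers of the cells that make them. The elongating spermatid list had a median level of 13.16 on each transgenic array and of 13.04 to 13.11 on wild-type arrays. Such a level rests on the genes that rank in the middle of the list, so it need not move with the median difference. The dimmest gene of the list was Car4, at a mean of 5.81. The list's median difference was -0.007 over 18 genes with 0 passing and 3 at an unadjusted p under 0.05, among them Akap3 (0.28, adjusted p = 0.388) and Car4 (-0.30, adjusted p = 0.53). Round spermatid genes had a median of -0.02 over 17 genes, with 0 passing and 2 at an unadjusted p under 0.05, Izumo1 (-0.28, adjusted p = 0.476) and Tex101 (-0.20, adjusted p = 0.743). The median over the brightest probe sets of the 6 genes, -0.02, lay near those of both spermatid lists. Meiotic genes, made before the kinases, had a median of -0.12, with 19 of 22 below 0, 0 passing and 4 at an unadjusted p under 0.05, Meiob (-0.58, adjusted p = 0.303) and Spo11 (-0.38, adjusted p = 0.451) having the smallest p.

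**Figure D4:**
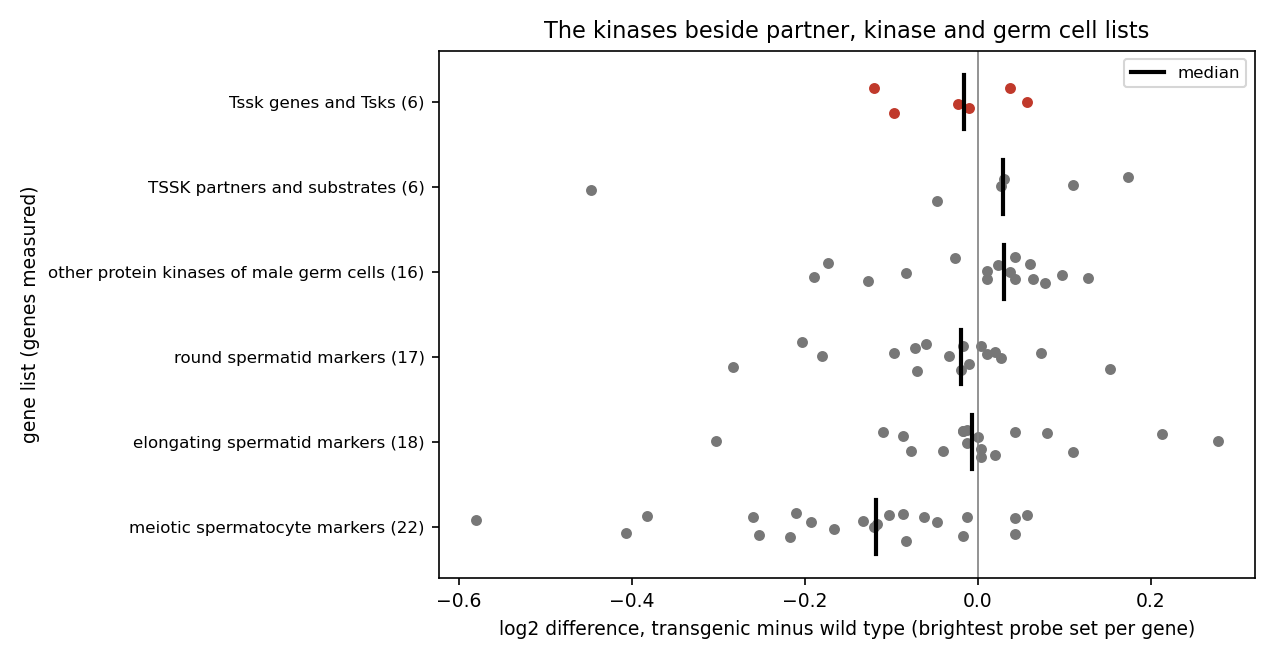
Log2 difference, transgenic minus wild type (horizontal axis), of the brightest probe set of each gene (points) in 6 gene lists (rows), with the median of each list as a bar. The Tssk genes and Tsks lie between -0.12 and 0.06, and the meiotic list has the lowest median, -0.12.

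Markers of other cells were followed in the same fit. Spermatogonial genes (10, median 0.02) and Sertoli cell genes (13, median 0.01) had 0 passing and 0 at an unadjusted p under 0.05, with Zbtb16 at 0.17, Lin28a at -0.30, Aard at -0.23 and Fshr at 0.20. Of 7 Leydig cell genes measured, among 10 listed, Hsd3b1, a steroid synthesis enzyme, rose by 1.48 (SE 0.13, limma adjusted p = 0.00109). The list's median difference was 0.13, with 3 of the 7 at an unadjusted p under 0.05. Its other steroid synthesis genes, named after their values were seen, did not pass. They read 0.91 (Hsd17b3), 0.03 (Cyp17a1), 0.01 (Star) and -0.06 (Cyp11a1). Macrophage and blood genes had a median of 0.10 (10 genes, 0 passing, 3 at an unadjusted p under 0.05), with Lyz2 at 0.36 and Csf1r at 0.28. Endothelial and peritubular genes had a median of -0.02 (10, 0 passing, 4 unadjusted), with Tek at 0.47 and Myh11 at -0.33. That median joins 5 genes above 0, all endothelial, and 5 below, the peritubular genes and endothelial Vwf. Genes listed as epididymal had a median of 0.07 (7 measured of 10, 0 passing, 1 unadjusted), with Rnase10 at -0.60 and Cst11 at 0.10. Spink2, also in that list, read 12.06 in transgenic and 12.02 in wild-type testis, so the list is not shown to hold epididymal transcripts alone. Over all 18193 genes 0.616% passed and 7.48% had an unadjusted p under 0.05, and the median was 0.02.

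The sign of 5 of the 9 member differences turned under 1 alternative. When that Gapdh end-to-end difference entered the fit as a covariate, Tssk6 read 0.22 and Tsks 0.235 in place of -0.01 and -0.02, and Tssk3 read 0.15 with its brighter probe set in place of -0.10. None passed (limma adjusted p = 0.649, 0.65 and 0.786). The covariate was 0.21 to 0.33 on the transgenic arrays and 0.06 to 0.16 on the wild-type arrays. Those ranges do not overlap, so the fit separates the covariate poorly from genotype. The brightest probe set of Tssk4 kept its sign under every alternative that held it, from -0.14 to -0.10 apart from the mean over its probe sets. Some of those alternatives, such as the replicate block, cannot change a difference.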

How the data were processed

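Per the labels, TRIzol and column-purified total RNA of testis was labelled with biotin and hybridised to whole-genome Affymetrix mouse arrays. Each deposited value is the log2 intensity of a probe set, to 2 decimals, made by the authors with RMA and the affy package, per the submitters' processing notes, with no version or build given. RMA gives the arrays a near-common distribution and no detection call. Gene names came from the platform annotation, updated through RefSeq (GRCm38.p6). Of 45101 probe sets 64 controls were left out. Of the 45037 tested, 34945 carry 1 gene, 932 several and 9160 none here.

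The fit used limma 3.58.1 (R 4.3.3) on all 45037 probe sets, with no filter. Differences are transgenic minus wild type, p-values were adjusted by Benjamini-Hochberg, and the threshold was 0.05. The number of arrays limits the precision. Errors are SDs over 3 arrays. Lists use the brightest single-gene probe set of each gene. Every member was named, and from each list up to 4 genes that passed or, with none, the 2 with the lowest p. Members, lists and rules were chosen with earlier results of these data known. Promoter windows are RefSeq's, aligned with Biopython 1.88. The alternatives were other normalizations, filters and variance models, array weights, a replicate block, a covariate for RNA integrity and leaving out each array. The test was checked on simulated data. A planned comparison of protein sequences was not run.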

Additional observations from a re-analysis of the deposited data

How the results depend on the processing

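No member probe set passed under any of the 15 alternative fits. The design fitted as reported gave 0 at an unadjusted p under 0.05, and array weights gave 0.00789 for the dimmer Tssk3 and 0.0104 for the dimmest Tssk4 probe set. Of 125 recomputed member differences 109 kept their sign. That count includes fits that cannot change a difference: trend and robust eBayes, the replicate block and the filters on probe sets return the main values. The smallest limma adjusted p was 0.0651 (Tssk3, dimmer probe set, with array weights, -0.24), where limma's weights did not fully converge. With the Gapdh covariate 5 differences changed sign: Tssk3 (brighter, 0.15), Tssk4 (0.31 and -0.13 with its dimmer probe sets), Tssk6 (0.22) and Tsks (0.235). The covariate was higher on every transgenic array than on any wild-type array, and the cause of the sign changes was not tested. Leaving out 1 array at a time, Tssk1 ranged from -0.007 to 0.10, Tssk2 from -0.045 to 0.08, dimmer Tssk3 from -0.20 to 0.008, the second Tssk4 probe set from -0.215 to 0.035, Tssk6 from -0.047 to 0.058 and Tsks from -0.095 to 0.015. The dimmest Tssk4 probe set reached 0.32 without wild type replicate 1 (unadjusted p = 0.0153, adjusted p = 0.484). The count over all probe sets, 200, was 306 with trend and robust eBayes, 4160 with array weights and 18 with the Gapdh covariate. It ran from 70 (without wild type replicate 3) to 429 (without wild type replicate 2) and was 71, 75 and 73 without transgenic replicates 1, 2 and 3. With the replicate block it was 117. Same-numbered arrays did not deviate together (r = -0.32, -0.07 and -0.01 over probe sets), and differently numbered ones ran from -0.19 to 0.25. Deviations from means of only 3 arrays cannot decide whether the numbers pair the samples. Of the 135 listed genes 1 passed, 2 after quantile normalization again or median centring, and 1 to 4 without 1 array (4 without wild type replicate 2). Of 110 recomputed list medians 2, both of elongating spermatid genes, moved by more than the spread between arrays. The files hold no measure of signal over background, so the dim probe sets have no detection limit here.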
